A study of Mus musculus with 6 samples.

Results

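The genes described here encode 3 groups of splicing factors and were picked by name, with earlier results of these data known. They are every row of the deposited count table whose symbol starts with Srsf, Hnrnp or Sf3, leaving out names that contain -ps. The rule found 40 of 45808 rows, namely 11 Srsf genes, 20 Hnrnp genes and 9 Sf3 genes, and all 40 passed the filter on low counts. The 1 row left out, Hnrnpa1l2-ps, held 0 or 1 count in each library. RNA came from T cells purified from the spleens of 2-month-old mice on the C57BL/6 strain background and activated in culture with antibodies to CD3 and CD28 plus IL-2, a T cell growth factor. There were 3 wild-type libraries and 3 libraries labelled Drp1-/- (KO), Drp1 being the GTPase that divides mitochondria, encoded by Dnm1l. The allele and any promoter or Cre behind the Drp1-/- label, the number of mice behind a library and the time in culture were not given in the sources used here. Nothing in the labels ties the replicates to separate animals or cultures, so a p-value here reflects the scatter among these 6 libraries, some or all of which may be technical.

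Splicing removes introns from pre-mRNA, and the factors named here decide where the spliceosome cuts. SR proteins (Srsf genes) carry RNA-binding domains and a tail rich in arginine and serine, and usually promote the use of exons they bind. The heterogeneous nuclear ribonucleoproteins (hnRNPs) coat nascent RNA and often repress exons or compete with SR proteins. SF3A and SF3B are the protein complexes of the U2 snRNP, the particle that recognises the branch point of an intron, and SF3B1 is the subunit that grips the branch point helix. T cell activation changes the splicing of many genes, and hnRNP L-like (Hnrnpll) is known for skipping exons of Ptprc, the gene of the phosphatase CD45, in activated and memory T cells. Myc is known to raise hnRNP A1, hnRNP A2 and PTBP1, which favour the M2 form of pyruvate kinase. The study's title names Myc-dependent metabolic reprogramming, and the comparison here asks how the mRNAs of these splicing factors differed between wild-type and KO cultures. Many SR and hnRNP genes also control themselves by splicing a poison exon into their own mRNA, which is then destroyed. A count per gene adds all isoforms together and does not separate these forms.

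The promoters of 4 genes are shown first, to let a reader see start regions. They are, in order, Hnrnpab (the member with the largest rise), Hnrnpa3, Hnrnpd, and Sf3b1 (the member with the largest fall). Hnrnpa3 and Hnrnpd both rose and are 2 of the 5 members with an E-box, the DNA motif of Myc and related factors, in a window. Hnrnpab and Sf3b1 hold none. Each promoter is the 250 bases before the RefSeq start (assembly GRCm38.p6), written 5′ to 3′ on the strand of the gene. Capitals mark the E-box CACGTG or a CCAAT box on either strand (CCAAT or ATTGG). The regions are chr11:51606882-51607131 (minus strand), chr2:75659009-75659258 (plus strand), chr5:99978939-99979188 (minus strand) and chr1:55027479-55027728 (minus strand).
Hnrnpab: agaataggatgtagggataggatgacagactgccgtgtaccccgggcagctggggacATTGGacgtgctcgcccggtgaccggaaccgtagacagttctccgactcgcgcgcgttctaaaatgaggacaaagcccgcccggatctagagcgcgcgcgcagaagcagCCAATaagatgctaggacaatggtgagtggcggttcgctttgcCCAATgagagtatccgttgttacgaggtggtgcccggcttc
Hnrnpa3: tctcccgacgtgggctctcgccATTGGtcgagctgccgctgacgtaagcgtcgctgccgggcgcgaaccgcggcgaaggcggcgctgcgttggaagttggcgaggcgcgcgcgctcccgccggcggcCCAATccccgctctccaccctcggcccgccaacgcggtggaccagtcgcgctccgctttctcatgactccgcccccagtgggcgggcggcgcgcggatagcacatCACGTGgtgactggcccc
Hnrnpd: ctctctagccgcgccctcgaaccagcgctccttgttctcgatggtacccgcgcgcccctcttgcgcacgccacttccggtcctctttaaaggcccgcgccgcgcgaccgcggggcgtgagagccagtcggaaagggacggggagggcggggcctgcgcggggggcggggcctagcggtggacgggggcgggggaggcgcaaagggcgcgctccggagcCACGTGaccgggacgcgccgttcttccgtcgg
Sf3b1: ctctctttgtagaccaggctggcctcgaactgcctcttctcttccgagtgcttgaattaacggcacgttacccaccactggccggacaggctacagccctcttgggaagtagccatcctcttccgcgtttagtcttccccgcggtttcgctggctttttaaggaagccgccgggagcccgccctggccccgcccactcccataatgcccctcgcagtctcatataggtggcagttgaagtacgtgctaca

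A RefSeq window of 250 bases before to 50 after the start was found for 36 of the 40 genes (49 windows), with none for Hnrnpll, Hnrnpul2, Sf3b4 and Sf3b5. The E-box CACGTG, which reads the same on both strands, occurred in windows of 5 of these 36 genes (13.9%), against 11.8% of 9675 tested genes with a window and 8.09% of all 27025 genes with one. The 5 were Hnrnpa3 (18 bases before the start), Hnrnpd (32 before), Hnrnpf (79 before), Hnrnpm (14 after) and Hnrnph2 (16 after). No Srsf or Sf3 window held these letters. CCAAT boxes, which do not overlap the E-box, occurred in windows of 13 of 18 Hnrnp genes (72.2%), 4 of 11 Srsf genes (36.4%) and 2 of 7 Sf3 genes (28.6%), against 43.0% of tested genes with a window. A match is a description of letters in a window and says nothing of binding.

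Library totals ran from 24738017 to 34730475 counts, and the 40 genes together held 270892 to 414308 of them. They took 1.06% to 1.10% of each wild-type library and 1.19% to 1.24% of each KO library, with no overlap. The Hnrnp genes took 0.660% to 0.671% of wild-type and 0.759% to 0.797% of KO counts, and the Srsf genes 0.206% to 0.216% and 0.240% to 0.247%. The Sf3 genes overlapped between groups, at 0.196% to 0.208% and 0.192% to 0.200%. All these shares use library totals alone. With that scaling, the median log2 of KO over wild type was 0.08 among all tested genes. Dnm1l had 123, 116.6 and 116.7 CPM in wild-type libraries and 92.6, 92.9 and 100.6 CPM in the libraries labelled KO. It was lower in all 3 of these, by 19.7% (log2 -0.32 ± 0.05), so 0.803 of the wild-type level remained. Whether the remaining reads come from outside a deleted part cannot be read from counts per gene, so Dnm1l does not by itself establish the label, and KO below means the libraries labelled Drp1-/-. Replicate 1 of the wild type was unlike its fellow replicates, with a chi-square per gene of 11.9 and 13.2 against them, where replicates 2 and 3 differed by 2.54. Pairs of KO replicates differed by 6.27, 4.48 and 3.38. The T cell markers were high in every library, and they summed to 3604 to 3699 CPM (counts corrected for library total with a TMM factor) in wild-type cultures against 3042 to 3140 CPM in KO cultures, with 9 of 10 called lower and Cd8a not called. NK cell markers summed to 16.2 to 23.1 CPM against 33.8 to 40.5 CPM (3 of 3 tested called higher). Most of that sum was Eomes, at 15.1 to 21.0 CPM against 30.8 to 36.4 CPM. The sum thus mainly followed that gene and does not give the number of NK cells. Ncr1 (0.0852 to 0.268 against 0.560 to 0.774 CPM) and Klrb1c (0.724 to 1.54 against 1.85 to 2.93 CPM) were low. Erythroid and platelet markers summed to 7.88 to 10.4 CPM against 21.3 to 24.1 CPM (4 of 4 tested called higher). Among all tested genes, 26.7% were called higher and 26.1% lower. Hba-a2 of the erythroid and platelet list and the neutrophil genes S100a8 and S100a9 were at 0 in every library. B cell markers summed to 475 to 484 CPM against 415 to 434 CPM (1 of 6 higher, 1 lower), and myeloid markers to 29.9 to 33.2 CPM against 23.7 to 26.7 CPM (1 of 4 tested higher, 2 lower). In bulk RNA, fewer cells of a type and less RNA per cell cannot be told apart, and the part of other cell types in the results below was not tested.

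More of the 40 splicing factor genes were higher than lower in KO, and nearly all changes were small. Each fold change is the log2 of KO over wild type, with its standard error after the sign ±, and a gene is called when its edgeR adjusted p is under 0.05 over all 14209 tested genes. In KO, 20 of the 40 genes rose, 6 fell and 14 were not called. Among all tested genes, 52.9% were called, 26.7% higher and 26.1% lower. The median log2 fold change of the 40 genes was 0.18, against 0.01 for all tested genes, and their changes ran from -0.55 (Sf3b1) to 1.10 (Hnrnpab). Hnrnpab and Sf3a2 were the 2 genes called higher by 1.5-fold or more, and 0 were called lower by that much, where the shares among all tested genes were 8.36% higher and 7.38% lower. All 3 KO libraries lay above all 3 wild-type libraries for 22 genes and below them for 7, where 32.5% and 30.8% of all tested genes did so. With library totals alone as the scaling, 24 genes were called higher and 3 lower, and the share of higher calls among all called genes was 62.0% in place of 50.6%.

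**Figure D1:**
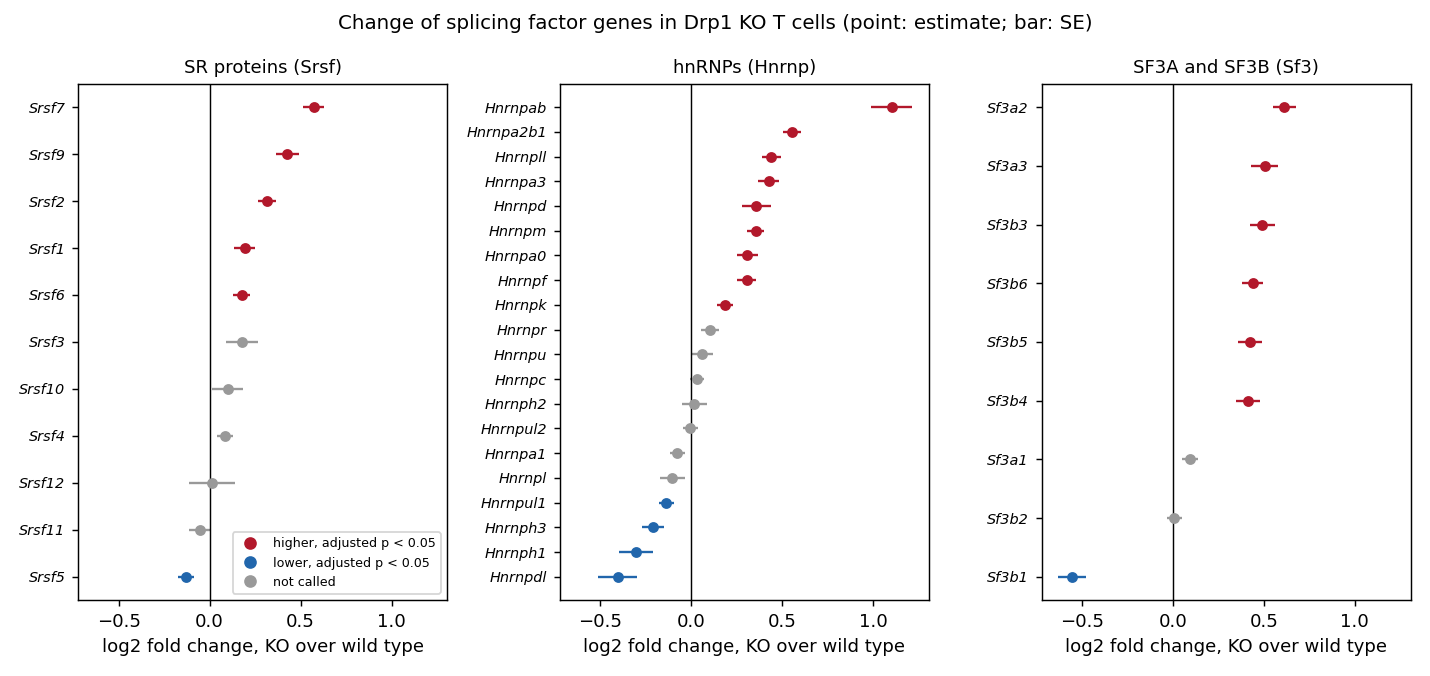
Log2 fold change of KO over wild type (x axis) for each gene (y axis) in the 3 families; points are edgeR estimates, bars their SE, and colour shows the call at an adjusted p under 0.05. Of 9 Sf3 genes, 6 are called higher and Sf3b1 stands alone to the left at -0.55, and Hnrnpab lies farthest right at 1.10.

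Among SR proteins 5 of 11 genes rose (Srsf7, Srsf9, Srsf2, Srsf1 and Srsf6), 1 fell (Srsf5) and 5 were not called, with a median log2 fold change of 0.18. These are 45.5% higher and 9.09% lower, against 26.7% and 26.1% of all tested genes. Srsf7, a small SR protein that also takes part in mRNA export, was at 123, 138 and 138 CPM in wild-type replicates 1, 2 and 3 and at 189.6, 203 and 200.4 CPM in KO replicates 1, 2 and 3. The groups were far apart, and the rise was 48.7% (log2 0.57 ± 0.06, edgeR adjusted p = 5.61e-05). Its close relative Srsf3, best known for export and for control of its own poison exon, had 195, 154 and 150.0 CPM in wild type and 183, 187 and 194 CPM in KO. Wild-type replicate 1 of Srsf3 was above every KO library, and the gene was not called (log2 0.18 ± 0.09, adjusted p = 0.118). Without that library Srsf3 was called higher (log2 0.30), and over 14 alternative fits its adjusted p ran from 1.19e-05 to 0.375. Srsf10 and Hnrnpr were also called higher without it, Srsf10 at a log2 of 0.21 against 0.10 with it.

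Srsf1, the founding member of the family and a Myc target in other cells, had 547, 475 and 483 CPM in wild type and 569, 557 and 594 CPM in KO. All 3 KO libraries were above wild type, though KO replicate 2 passed wild-type replicate 1 by little, and the rise was 14.3% (log2 0.19 ± 0.06, edgeR adjusted p = 0.0177). The call of Srsf1 was lost without wild-type replicate 2, wild-type replicate 3 or KO replicate 3, and its edgeR adjusted p ran from 3.65e-05 to 0.0825 over the alternative fits. Its relative Srsf9 rose more, from 47.0, 53.4 and 54.6 CPM to 67.2, 70.8 and 70.7 CPM (log2 0.43 ± 0.06, edgeR adjusted p = 0.000404). Srsf2, also known as SC35 and mutated in some blood cancers, rose from 212, 201 and 192 CPM to 245, 257 and 252 CPM (log2 0.32 ± 0.05, edgeR adjusted p = 0.000507). Exons of Mettl23 and Mfsd11 on the opposite strand overlap 25.3% of the exon length of Srsf2, and both of these genes fell (log2 -0.29 and -0.30).

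Srsf4, Srsf5 and Srsf6 are related SR proteins with longer arginine-serine tails, and they did not move together. Srsf6 rose from 178, 172 and 168 CPM to 193, 194 and 198 CPM (log2 0.18 ± 0.04, edgeR adjusted p = 0.00757). Srsf5 fell from 402, 397 and 388 CPM to 376, 353 and 355 CPM (log2 -0.13 ± 0.04, edgeR adjusted p = 0.0303). Srsf4 had 128, 131 and 128 CPM in wild type and 138, 137 and 134 CPM in KO, with no overlap, but was not called (adjusted p = 0.133). Srsf5 fell by 8.56%, and its call was lost with library totals alone, with upper quartile factors, and without wild-type replicate 2, KO replicate 2 or KO replicate 3 (edgeR adjusted p from 0.0118 to 0.314 over the alternative fits). Within each library, where scaling plays no part, the ratio of Srsf6 to Srsf5 counts was 0.437 ± 0.00601 in wild type and 0.540 ± 0.0237 in KO (SD, n = 3 each). For this ratio and the hnRNP ratios below, the pair was picked for its opposite calls. The direction was thus fixed by the choice, and the ratio is no further evidence for either call. Srsf11 and Srsf12 were not called either, and Srsf12 was the lowest of the 40 genes at 4.03 to 4.98 CPM.

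**Figure D2:**
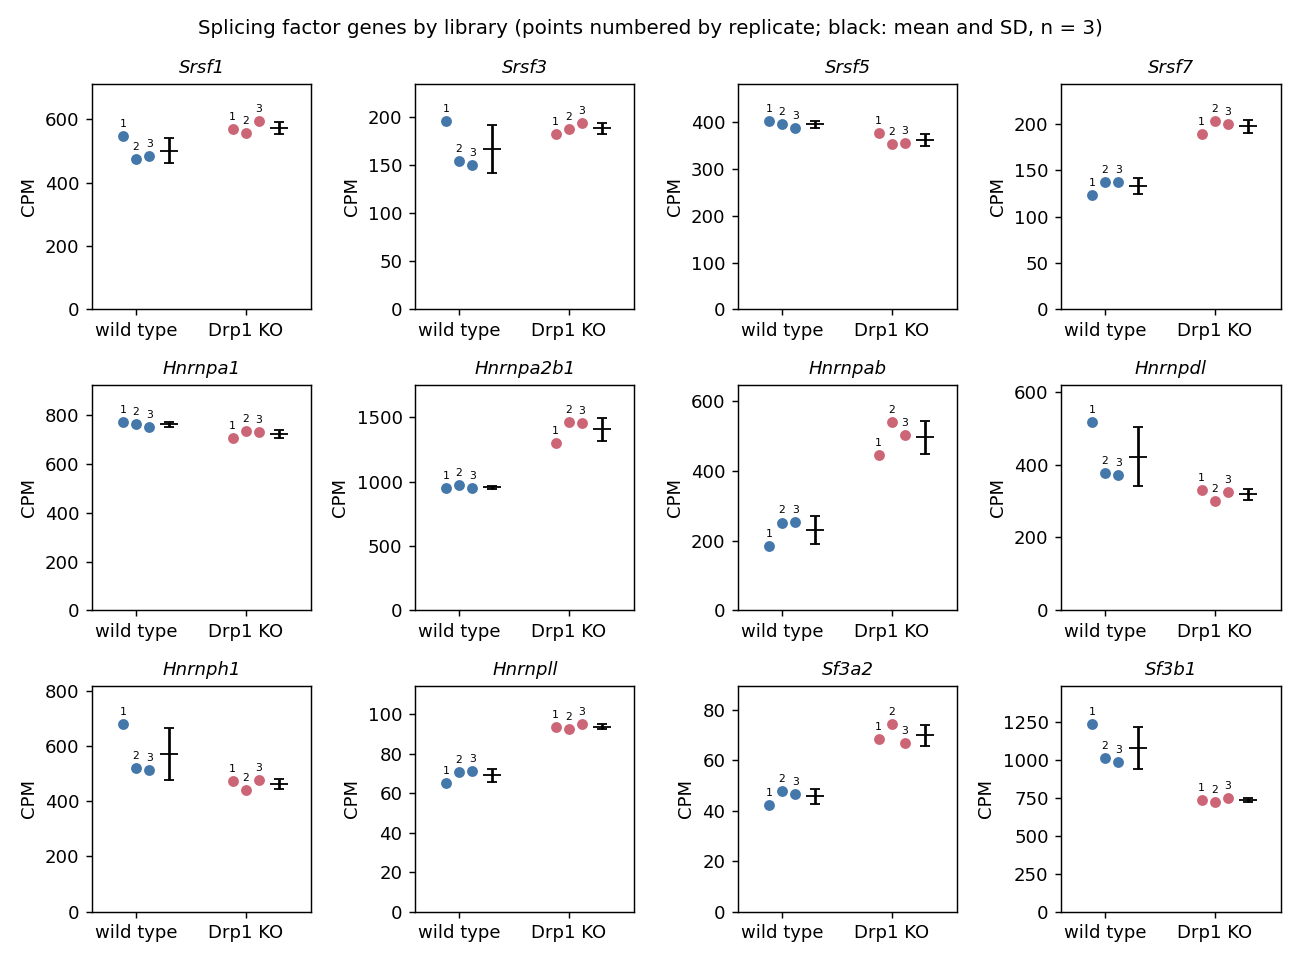
CPM (y axis, from 0) by genotype (x axis) for 12 of the genes; points are libraries numbered by replicate, and black marks show the mean and SD of 3 libraries. Hnrnpab goes from 231 to 496 CPM and Sf3b1 from 1079 to 735 CPM, and wild-type replicate 1 is the highest library for Hnrnpdl, Hnrnph1 and Sf3b1.

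Of 20 hnRNP genes 9 rose (45%), 4 fell (20%) and 7 were not called, with a median of 0.08. Among all tested genes 26.7% were called higher and 26.1% lower, so falls were no more common here than elsewhere. The A/B group, abundant proteins that bind exon silencers, split between its main members. Hnrnpa2b1 was at 955, 972 and 949.7 CPM in wild type and at 1305, 1462 and 1458 CPM in KO, a rise of 46.8% (log2 0.55 ± 0.05, edgeR adjusted p = 4.14e-05) with tight wild-type values and wide separation. Hnrnpa1 had 769, 764 and 750.2 CPM in wild type and 705, 733 and 729 CPM in KO. All 3 KO libraries of Hnrnpa1 were below wild type, but it was not called (log2 -0.08 ± 0.04, edgeR adjusted p = 0.129). Hnrnpa3 rose by 34.2% (log2 0.42 ± 0.06) and Hnrnpa0, a gene with a single annotated transcript, by 23.9% (log2 0.31 ± 0.06). Within the family, Hnrnpa2b1 went from 14.0% ± 0.467 to 18.4% ± 0.641 of all Hnrnp counts and Hnrnpa1 from 11.1% ± 0.229 to 9.46% ± 0.0882 (SD, n = 3 each). Members of this group, above all Hnrnpa1, have processed pseudogenes that could share reads with them.

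The D group binds AU-rich RNA and held both the largest rise and the largest fall among hnRNPs. Hnrnpab, an RNA-binding protein also called CBF-A, was at 186, 252 and 255 CPM in wild type and at 446, 539 and 503 CPM in KO. It more than doubled, by 115% (log2 1.10 ± 0.11, edgeR adjusted p = 6.48e-05), and remained called without wild-type replicate 1, its lowest library (log2 0.97). Hnrnpd, also called AUF1 and known for decay of cytokine mRNAs, had 157, 134 and 128 CPM in wild type and 169, 192 and 177 CPM in KO (log2 0.36 ± 0.08, edgeR adjusted p = 0.00327). Hnrnpdl, which lies near Hnrnpd on chromosome 5 and encodes a related protein, fell from 515, 377 and 372 CPM to 329.8, 301 and 323 CPM (log2 -0.41 ± 0.11, edgeR adjusted p = 0.00978). Wild-type replicate 1 was far above the rest for Hnrnpdl, and without it the log2 fold change was -0.24, still called. The ratio of Hnrnpab to Hnrnpdl counts was 0.361, 0.670 and 0.685 in wild type and 1.35, 1.79 and 1.56 in KO. Per kb of the union of exons, Hnrnpab was below Hnrnpdl in wild-type replicate 1 (66.8 against 107 CPM per kb). It was above Hnrnpdl in wild-type replicates 2 (90.7 against 78.2) and 3 (91.5 against 77.2). In every KO library it was also above (160 to 194 against 62.4 to 68.5). With the longest transcript as the length, the wild-type mean of Hnrnpab was below that of Hnrnpdl (97.5 against 153 CPM per kb). Their order in wild type thus depended on the length used. Exons of Phykpl on the opposite strand overlap 29.1% of the exon length of Hnrnpab, and Phykpl had 12.5 to 16.1 CPM against 17.7 to 19.6 CPM. The part of shared reads in the values of Hnrnpab was not tested.

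The F/H group binds runs of G and also moved both ways. Hnrnpf rose from 79.6, 85.0 and 85.7 CPM to 100.002, 107 and 102 CPM (log2 0.31 ± 0.05, edgeR adjusted p = 0.00085). Hnrnph1 fell from 681, 522 and 512 CPM to 472, 441 and 476 CPM (log2 -0.30 ± 0.09, edgeR adjusted p = 0.0208). Wild-type replicate 1 again stood highest, and the log2 fold change of Hnrnph1 was -0.16 without it. The call of Hnrnph1 was lost without KO replicate 2 (edgeR adjusted p from 3.52e-06 to 0.0793 over the alternative fits). Hnrnph3 fell from 94.3, 84.1 and 81.4 CPM to 74.4, 75.6 and 74.1 CPM (log2 -0.21 ± 0.06, edgeR adjusted p = 0.0138), a call lost with library totals alone and without KO replicate 3 (adjusted p from 0.00452 to 0.057 over the alternative fits). Hnrnph2, which lies on chromosome X and closely resembles Hnrnph1, had 62.0, 52.7 and 55.3 CPM in wild type and 57.8, 54.3 and 59.7 CPM in KO and was not called (adjusted p = 0.85). The ratio of Hnrnpf to Hnrnph1 counts was 0.117 to 0.167 in wild type and 0.212 to 0.243 in KO.

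Of the pair known in T cells for control of CD45 exons, one moved. Hnrnpll was at 65.4, 70.7 and 71.2 CPM in wild type and at 93.4, 92.5 and 95.3 CPM in KO, a rise of 35.6% (log2 0.44 ± 0.05, edgeR adjusted p = 0.000121). Hnrnpl, its abundant relative, had 731, 621 and 604 CPM in wild type and 609, 622 and 589 CPM in KO, with overlapping groups (log2 -0.10 ± 0.07, adjusted p = 0.22). Which CD45 exons were used is not in counts per gene. Among the other hnRNPs, Hnrnpm, a splicing repressor, rose by 27.9% and Hnrnpk, which binds C-rich RNA, by 13.8%. Hnrnpul1 fell by 9.12% (log2 -0.14 ± 0.04, edgeR adjusted p = 0.0154), a call lost with library totals alone and without KO replicate 2 (adjusted p from 0.00836 to 0.193 over the alternative fits). Hnrnpc, Hnrnpr, Hnrnpu and Hnrnpul2 were not called, with log2 fold changes of -0.0043 to 0.10.

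Among SF3 genes, 6 of 9 rose by 33.1% to 53.0%, 2 of them in SF3A and 4 in SF3B. A single SF3B gene, Sf3b1, fell by 31.9%, and 2 genes were not called. Calls among all tested genes were 26.7% higher and 26.1% lower. Sf3a2, a subunit of SF3A, was at 42.4, 47.9 and 46.7 CPM in wild type and at 68.5, 74.5 and 66.7 CPM in KO (log2 0.61 ± 0.06, edgeR adjusted p = 7.62e-05). Exons of Plekhj1 on the opposite strand overlap 16.1% of the exon length of Sf3a2, and Plekhj1 rose too, from 42.4 to 43.2 CPM to 48.8 to 52.6 CPM. Sf3a3, which links SF3A to the rest of the U2 snRNP, rose from 67.6, 82.0 and 75.3 CPM to 100.5, 113 and 106 CPM (log2 0.50 ± 0.07, edgeR adjusted p = 0.000343). Sf3b3, a scaffold subunit of SF3B, rose from 171, 194 and 198 CPM to 245, 282 and 265 CPM (log2 0.49 ± 0.07, edgeR adjusted p = 0.000278). The small subunit genes Sf3b4, Sf3b5 and Sf3b6 rose by 33.1%, 34.2% and 35.4%, at mean levels of 20.2, 50.4 and 54.9 CPM in wild type.

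Sf3b1 was at 1239, 1013 and 987 CPM in wild type and at 734, 724 and 747 CPM in KO. Every KO library was well below every wild-type library (log2 -0.55 ± 0.08, edgeR adjusted p = 0.000252), and without wild-type replicate 1, the highest, the log2 fold change was -0.45. In wild type it held 52.3% ± 3.76 of all Sf3 counts, and in KO 38.6% ± 1.21 (SD, n = 3 each). Sf3b2 had 355, 356 and 350.4 CPM in wild type and 348, 366 and 354 CPM in KO (adjusted p = 0.877), and Sf3a1 was not called (log2 0.09 ± 0.04). The ratio of Sf3b3 to Sf3b1 counts was 0.138, 0.191 and 0.201 in wild type and 0.334, 0.389 and 0.354 in KO, and ratios of Sf3b4, Sf3b5 and Sf3b6 to Sf3b1 differed by 0.96 to 0.98 on the log2 scale. The ratio of Sf3b2 to Sf3b1 counts was 0.331 ± 0.0384 in wild type and 0.484 ± 0.0182 in KO. The ratios are given as a description, with no test. The pairs of hnRNP and SR genes set a called rise over a called fall of the same group, and the SF3B pairs were picked after their values were seen, so the direction of all 10 ratios was fixed by the choice of pairs.

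**Figure D3:**
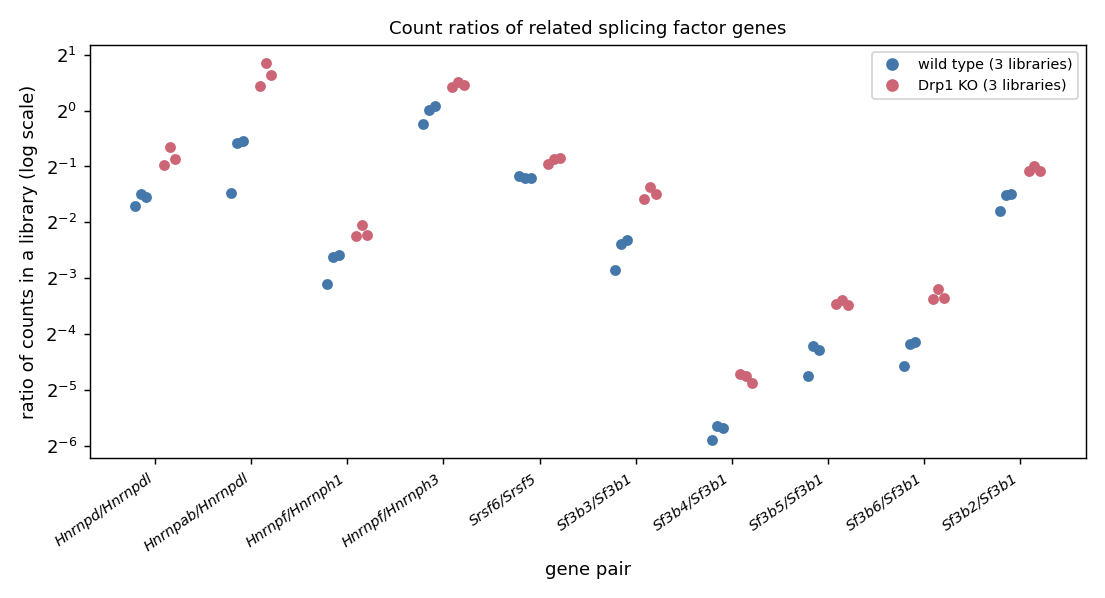
Ratio of raw counts of gene pairs within each library (y axis, log2 scale) for 10 pairs (x axis); blue points are wild-type and red points KO libraries. The pairs were chosen with their direction known, so the plot shows sizes: the mean of Hnrnpab/Hnrnpdl is 0.572 in wild type and 1.57 in KO, and that of Srsf6/Srsf5 0.437 and 0.540.

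The plot of each gene against its own mean shows how far the pattern rested on wild-type replicate 1. That library lay more than 10% outside both other wild-type libraries for 19 of the 40 genes, 12 higher and 7 lower, while replicates 2 and 3 did so for 0 genes. Among all tested genes replicate 1 lay that far above the others for 19.6% and below them for 21.9%. For replicates 2 and 3 these shares were 7.71% and 8.02% above, and 7.13% and 7.28% below. The 12 were Hnrnpd, Hnrnpdl, Hnrnph1, Hnrnph2, Hnrnph3, Hnrnpl, Sf3b1, Srsf1, Srsf3, Srsf10, Srsf11 and Srsf12, and the 7 were Hnrnpab, Sf3a2, Sf3a3, Sf3b3, Sf3b5, Srsf7 and Srsf9. Without wild-type replicate 1, 23 genes were called higher and 6 lower, with a median of 0.21. Malat1, a nuclear RNA, was also highest in that library, at 486 CPM against 395 and 419 CPM, and fell in KO to 289.7 to 335 CPM. It was 1 of 3 tested nuclear-retained RNAs called lower, where 26.1% of all tested genes were called lower. Neat1 (294 to 322 against 275 to 305 CPM) and Kcnq1ot1 were not called. The list summed to 727 to 811 CPM against 591 to 656 CPM, so this sum does not show a fall of the whole list. The part of Malat1 in the splicing factor results was not tested.

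**Figure D4:**
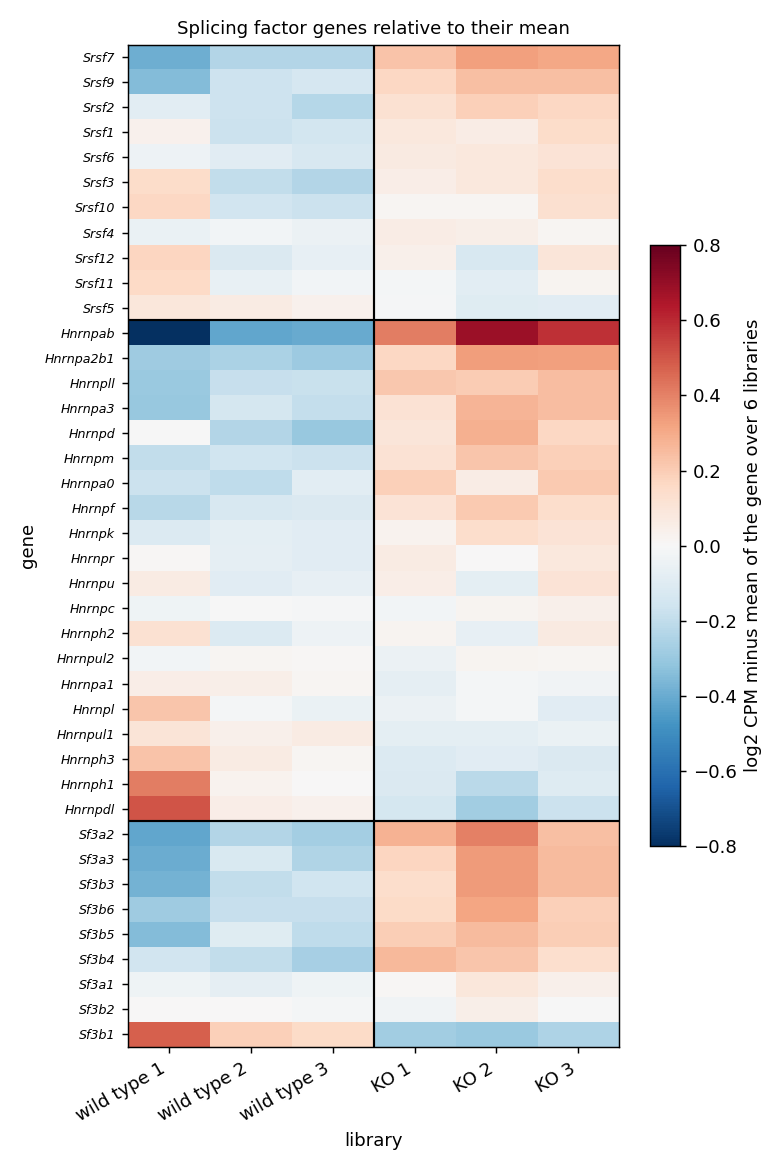
Log2 CPM of each gene (y axis) minus its mean over 6 libraries, by library (x axis), with red above and blue below the mean; families are parted by lines and genes ordered by fold change. Wild-type replicate 1 is the bluest column for Hnrnpab and the reddest for Hnrnpdl and Sf3b1.

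Levels were compared per exon length, and the order of the genes depended on which length was used. Over the union of exons, Hnrnpa1 and Hnrnpa2b1 had the highest levels of these mRNAs. In wild type, Hnrnpa1 stood at 238 to 244 CPM per kb of exon and Hnrnpa2b1 at 144 to 148, without overlap, and in KO they stood at 224 to 232 and 198 to 222. Hnrnpl (101 to 123 CPM per kb), Hnrnpc (101 to 103) and Srsf5 (97.2 to 101) followed, and these neighbours did not differ beyond the spread of libraries. With the longest transcript as the length, Hnrnpa2b1 came first in wild type at a mean of 263 CPM per kb, Hnrnpa1 (244) and Hnrnpl (243) were level behind it, and Hnrnpc and Srsf5 moved to ranks 6 and 9. Hnrnpab had 66.8 to 91.5 CPM per kb of exon union in wild type and 160 to 194 in KO. The lowest mean levels in wild type over the exon union were those of Srsf12 (1.40 CPM per kb) and Hnrnpr (5.04).

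The 40 genes also share features of annotation. They lie on 17 chromosomes, and all are protein-coding. In GRCm38 the gene body of Hnrnpab is at chr11:51600100-51606847, of Hnrnpa2b1 at chr6:51460932-51469894, of Hnrnpdl at chr5:100033577-100039664, of Hnrnpll at chr17:80029487-80062334, of Srsf7 at chr17:80200080-80207307 and of Sf3b1 at chr1:54985169-55027481, each on the minus strand. Srsf1 (chr11:88047373-88053755) and Hnrnpa1 (chr15:103240432-103246692) are on the plus strand. At least 1 transcript marked for nonsense-mediated decay, the pathway that destroys poison exon forms, is annotated for 9 of 11 Srsf genes (81.8%), 10 of 20 Hnrnp genes and 1 of 9 Sf3 genes, which is Sf3b1. Among 11623 tested protein-coding genes the share was 29.2%. A transcript with a retained intron is annotated for 29 of the 40 (72.5%), against 60.0% of those genes. The 40 genes had a median of 7 annotated transcripts against 5, so more transcripts were there to carry such a mark. Exons of other genes cover 10% or more of the exon length of 6 of the 40 genes (Hnrnpab, Hnrnpf, Hnrnpm, Sf3a2, Srsf2 and Srsf4), and the sources used here do not say whether counting used strand. For Hnrnpm the other gene, March2, lies on the same strand and overlaps 14.7%, so strand would not separate their reads. No level of March2 was found by name.

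Other splicing genes, in 9 lists chosen with earlier results of these data known, were called higher more often than lower, though not in every list. Of 187 tested, 76 rose (40.6%), 41 fell (21.9%) and 70 were not called, with a median of 0.07. Among all tested genes, 26.7% were called higher and 26.1% lower. The Sm core and assembly list, whose proteins form the ring of each snRNP, had 12 of 19 higher and 0 lower (median 0.34), and Snrpb rose from 142 ± 12.8 to 230.1 ± 15.8 CPM. U2 snRNP and U2AF genes outside Sf3 had 10 of 16 higher and 3 lower, with Snrpa1 higher (log2 0.47 ± 0.05) and Smndc1 lower (log2 -0.26 ± 0.08). U4/U6.U5 tri-snRNP genes had 12 of 23 higher and 2 lower, with Prpf31 higher (log2 1.06 ± 0.09) and Ddx23 lower (log2 -0.47 ± 0.06). Arginine methyltransferases, which modify hnRNPs, and hnRNP import receptors had 6 of 7 higher and 0 lower, led by Prmt7 (log2 0.69 ± 0.06).

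Kinases of SR proteins and SR-related proteins had 14 of 31 lower and 6 higher (median -0.17). Clk1, a kinase that phosphorylates SR proteins in the nucleus, fell from 526, 401 and 388 CPM to 247, 213 and 237 CPM (log2 -0.91 ± 0.10, edgeR adjusted p = 0.000111), with wild-type replicate 1 highest. Son, a large protein of nuclear speckles, rose (log2 0.28 ± 0.05). U1 snRNP genes had 4 of 11 lower and 2 higher (median -0.19), with Luc7l lower (log2 -0.50 ± 0.07) and Snrpa higher (log2 0.48 ± 0.06). The Prp19 list had 6 of 23 higher (26.1%, near the 26.7% of all tested genes) and 3 lower (13.0%). In it Prpf19 was higher (log2 0.54 ± 0.06) and Slu7 lower (log2 -0.41 ± 0.06). Exon junction and decay factors had 6 of 15 higher and 5 lower, with Eif4a3 higher (log2 0.64 ± 0.07) and Smg6 lower (log2 -0.69 ± 0.07). Among other splicing regulators 16 of 42 rose (38.1%) and 10 fell (23.8%, near the 26.1% of all tested genes). Sfpq was higher (log2 0.66 ± 0.05) and Rbm5 lower (log2 -0.41 ± 0.06). No test of a list as a whole was made.

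**Figure D5:**
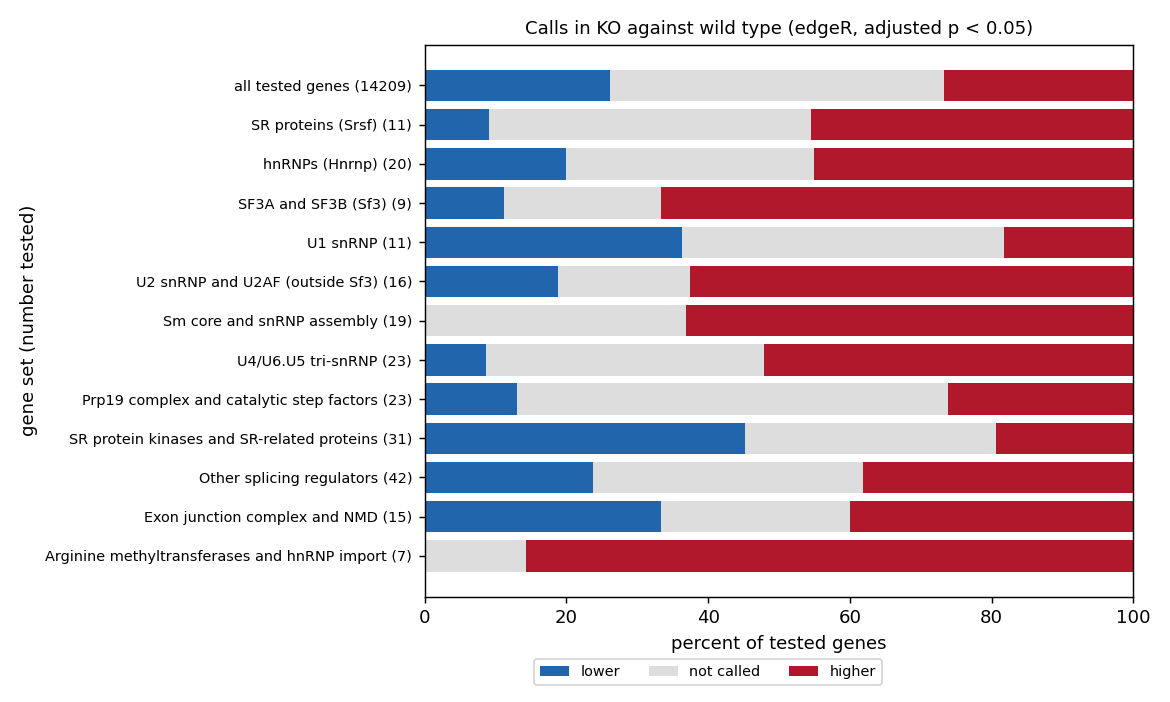
Percent of tested genes (x axis) called lower, not called or called higher in KO, for all tested genes, the 3 families and 9 lists of other splicing genes (y axis, number tested in brackets). Higher calls take 66.7% of Sf3 genes and 26.7% of all tested genes, and lower calls outnumber higher calls in the U1 list and the kinase and SR-related list.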

How the data were processed

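Polyadenylated RNA of 6 libraries was sequenced after stranded library preparation, per the labels' protocols. The values used are raw counts for each gene symbol, in a single table deposited by the authors. Tools in the submitters' processing notes are STAR 2.5.2, HTSeq 0.6.1, DESeq2 1.12, FastQC and Cufflinks, with the build mm10. Roles of the tools, the strand setting and the handling of reads that match several genes were not given in the sources used; reads of paralogs, pseudogenes and overlapping genes may be shared. Spreadsheet dates replaced 27 symbols (0.241% of counts), which stayed in totals unnamed.

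Counts were fitted with edgeR 4.0.16 (R 4.3.3): TMM factors (0.949 to 1.03), filterByExpr, a quasi-likelihood F test between genotypes, Benjamini-Hochberg adjustment over 14209 genes. The SE is the fold change over the root of F. The procedure was also run on simulated counts drawn from the means and dispersions of this fit. It recovered 39.4% of changes with a log2 of 0.3, 66.2% at 0.6 and 90.8% at 1. Only 65 or 66 of 14043 genes were changed at each size, unlike in these data, so these shares do not carry over directly. A gene not called may still differ. Positions and lengths come from GENCODE vM21, of the same build.

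Members and lists were chosen with earlier results of these data known. Of the members, 23 were named by rule: Srsf1, Srsf3, Hnrnpa1, Hnrnpa2b1, Hnrnpl, Hnrnpll and Sf3b1, the 3 largest called rises and falls per family at 5 CPM or more, and paralog groups called in opposite directions. In each other list the called gene with the smallest adjusted p per direction was named. Other members were named to account for all. Alternatives were other scalings, DESeq2 1.42.0, limma-voom (limma 3.58.1), other filters, the replicate number as a block, a threshold of 0.01, each library left out, and another length. Figures used matplotlib 3.10.9.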

Additional observations from a re-analysis of the deposited data

How the results depend on the processing

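Of the 20 rises, 19 kept direction and call in all 14 alternative fits, Srsf1 being the exception, and of the 6 falls only Hnrnpdl and Sf3b1 did. With library totals alone, 3 members were called lower (0 Srsf, 2 Hnrnp), and the median of members was 0.25. Upper quartile factors left 0 Srsf genes lower. At an adjusted p under 0.01, 2 members were lower (0 Srsf, 1 Hnrnp). With each library left out in turn, members called lower ran from 3 to 6, Srsf genes called lower from 0 to 1, Hnrnp genes called lower from 2 to 4, and the median of members from 0.12 to 0.21. Members called higher ran from 19 to 23.

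Changes near 0 turned sign without being called. Sf3b2 was at -0.00017 with DESeq2 size factors and -0.0011 with DESeq2, Hnrnpul2 at 0.017 with upper quartile factors and 0.071 with library totals alone, and Srsf11 at 0.025 with library totals alone. With libraries left out, Sf3b2 ran from -0.010 to 0.020, Hnrnpul2 from -0.016 to 0.013, Srsf11 from -0.10 to 0.015, Hnrnph2 from -0.034 to 0.083 and Srsf12 from -0.046 to 0.10. The cause of these shifts was not tested.

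With the replicate number as a block, 20 members were higher and 6 lower, and 7900 of all genes were called in place of 7513. Same-numbered libraries had correlations of 0.17, 0.13 and 0.01 between their deviations from the group means, and not every library correlated best with its own number, so the numbers were not taken as pairs. The members had 117 to 48787 counts in each library, the lowest being those of Srsf12, and how far counting error or group size limits each gene was not tested.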
